A study of Mus musculus with 16 samples.

Results

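Hbb-bs, Hbb-bt, Hba-a1, Hba-a2, Alas2 and Slc4a1 are genes of the red cell lineage, and their RNA was measured here in parvalbumin (PV) interneurons sorted from mouse cortex. The 6 genes were taken by name from the 54532 genes of the deposited tables, as a set chosen by its measured values: an earlier analysis of these libraries had singled the genes out by their difference between the groups. Their levels in the groups are therefore given as a description, and no result is read from a test of them. The 6 genes did not behave as a single set. Hbb-bs and Hba-a1 were sparse, went together over libraries and were highest in 2 eGFP libraries. Without these 2 libraries their correlation was 0.56 and did not pass the threshold (adjusted permutation p = 0.180). Alas2 was measured at 12.2 to 26.6 CPM in all 16 libraries. Its total was 3026 reads in the deposited counts but 1236 in reads recovered from the authors' normalized counts. Of its exon bases, 12.9% are also exon of Apex2. Slc4a1 was close to 0 in some libraries and well measured in others, along an axis that separates the libraries irrespective of group.

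The study sorted PV interneurons, the fast-spiking inhibitory neurons of the cortex, from adult mice aged 113.1 ± 11.6 days over the whole study. All mice carried PV-Cre, which turns on a Cre-dependent transgene in PV cells; in 9 libraries (PV-Cre;lsl-eGFP, the controls) this transgene was eGFP, and in 7 (PV-Cre;lsl-eGFP-GluA2) it was eGFP fused to the AMPA receptor subunit GluA2, used to remove calcium-permeable AMPA receptors. Tissue was digested, fixed for 15 min, triturated and sorted for green cells that stained with DRAQ5, a DNA dye that marks cells with a nucleus. The labels number the libraries as biological replicates of each group and give no sex, litter or batch per library.

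Hemoglobin is a tetramer of alpha-like and beta-like globin chains, each holding a heme group, and it fills the red cells that carry oxygen. In adult mice the alpha chains come from Hba-a1 and Hba-a2 and the beta chains from Hbb-bs and Hbb-bt, while Hba-x, Hbb-y and Hbb-bh1 serve the embryo. ALAS2 makes the first intermediate of heme synthesis in erythroid cells, with ALAS1 doing so elsewhere, and SLC4A1 (band 3) exchanges chloride for bicarbonate across the red cell membrane and anchors the membrane skeleton. Mature mammalian red cells have no nucleus, and globin RNA has been described in neurons as well as in blood.

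Each library held 7454165 to 15462544 counts, so that a single read equals 0.0647 to 0.134 CPM (counts scaled to the library's total), and 3 reads, the limit that a count of 0 allows, equal 0.194 to 0.402 CPM. These limits and the intervals below cover counting error only. Gria2, the gene of GluA2, stood at 796 CPM or more in every eGFP-GluA2 library (935 ± 117 CPM, SD, n = 7) and at 729 CPM or less in every control (581 ± 84.8 CPM, SD, n = 9), as the labels have it. The libraries also differed in reads of 1450 olfactory and vomeronasal receptor genes, a summed level called the background here. It was low (82.4 to 162 CPM) in 5 libraries, replicates 7 to 9 of eGFP with 6 and 7 of eGFP-GluA2. It was in the middle (676 to 1277 CPM) in 5, replicates 5 and 6 of eGFP with 2, 4 and 5 of eGFP-GluA2, and high (1911 to 4148 CPM) in the other 6. Interneuron markers fell as it rose: 10 of 10 fixed PV markers did so (9 with the total-count scaling described below). Of all 26257 genes tested, 31.4% fell in the main fit, and 3388 genes fell with total-count scaling. The PV markers summed to 9756 to 10675 CPM in low- and 5766 to 7673 CPM in high-background libraries. Gad1, which makes GABA, had 2878 ± 106 CPM (SD, n = 5) in the former and 1753 ± 342 CPM (SD, n = 6) in the latter.

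The sequences of the globin pairs set what short reads can tell apart, and are shown for that reason. Hba-a1 (ENSMUSG00000069919, GRCm38 chromosome 11: 32283511 to 32284465, plus strand) and Hba-a2 (ENSMUSG00000069917, chromosome 11: 32296489 to 32297298, plus strand) have coding sequences of 426 bases in the GENCODE annotation that differ at 1 base, C381T, counted from the first base of the start codon and given as Hba-a1 to Hba-a2 (99.8% identity). The stretch from base 351 to 411 reads as follows, 5′ to 3′, with the differing base in capitals.
Hba-a1: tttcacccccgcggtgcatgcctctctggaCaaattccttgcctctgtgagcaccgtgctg
Hba-a2: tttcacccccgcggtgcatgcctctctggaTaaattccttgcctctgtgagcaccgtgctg
Hbb-bs (ENSMUSG00000052305, chromosome 7: 103826534 to 103828096, minus strand) and Hbb-bt (ENSMUSG00000073940, chromosome 7: 103812524 to 103813996, minus strand) differ at 1 of 441 coding bases, C417T, given as Hbb-bs to Hbb-bt. Bases 387 to 441 are printed with the difference in capitals.
Hbb-bs: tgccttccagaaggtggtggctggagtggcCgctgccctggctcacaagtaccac
Hbb-bt: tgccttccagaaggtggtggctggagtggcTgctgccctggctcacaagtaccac
Of the 550 windows of 150 bases in the main Hba-a1 transcript, 266 (48.4%) also occur in Hba-a2, and these make up 65.7% of the 405 windows of Hba-a2. For the beta pair 281 windows are shared, 58.7% of the 479 of Hbb-bs and 50.7% of the 554 of Hbb-bt. A single read of 150 bases that lies in such a window fits both genes of a pair. The libraries hold read pairs, which these shares of single windows do not take into account. The split of reads within each globin pair is therefore uncertain to a degree not measured here, and each globin pair is also given as a sum.

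Hbb-bs and Hba-a1 went together over libraries (below), and part of their start regions is shown because the letters of classical globin promoter elements can be seen in them. The bases are from RefSeq on GRCm38.p6, before the RefSeq start of transcription. Where a stretch holds them, the CCAAT box, the CACCC box and the TATA-like ATATAA are in capitals. The Hbb-bs stretch covers the 83 bases that no annotated exon holds (chr7:103827929-103828011, minus strand). The CACCC of Hbb-bs at -90 is not in it, since it lies in the other 67 of the 150 bases, which are annotated exon.
Hbb-bs: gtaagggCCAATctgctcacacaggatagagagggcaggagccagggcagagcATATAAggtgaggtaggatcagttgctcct
The Hba-a2 stretch is 150 bases long (chr11:32296342-32296491, plus strand).
Hba-a2: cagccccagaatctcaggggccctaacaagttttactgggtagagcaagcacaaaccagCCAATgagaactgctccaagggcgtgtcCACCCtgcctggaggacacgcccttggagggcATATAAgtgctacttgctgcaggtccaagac
The entries of Hba-a1 and Hba-a2 are identical over 297 of 297 aligned bases, so the latter stands for both. Within the 150 bases before the start, both strands searched, Hbb-bs holds CACCC at -90, CCAAT at -76 and ATATAA at -30, and Hba-a2 holds CCAAT at -91, CACCC at -63 and ATATAA at -31. Among 32851 RefSeq promoters, 37.4% hold CACCC, 24.5% CCAAT, 13.3% GATAA and 5.35% ATATAA in such a window. GATAA, the core of GATA factor sites, occurs in none of these globin windows but in that of Alas2, at -86 on the other strand. Slc4a1 has no entry in the promoter table used. A match of letters is a description of the sequence only.

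Hbb-bs, the more abundant adult beta-globin gene in these libraries, had 362 reads in all. In the eGFP group its level ran from 0.858 CPM in replicate 7 over a median of 1.97 to 8.91 CPM in replicate 8. In the eGFP-GluA2 group it ran from 0.333 CPM in replicate 4 over a median of 0.699 to 2.01 CPM in replicate 1. The groups overlapped, and the level of eGFP replicate 8 (118 reads; exact 95% binomial interval 7.37 to 10.7 CPM) stood above that of eGFP replicate 9 (3.35 CPM, 45 reads, interval 2.44 to 4.48 CPM) and of every other library beyond counting error. Both libraries have a low background. The means were 2.65 ± 2.48 CPM (SD, n = 9) in eGFP and 1.13 ± 0.766 CPM (SD, n = 7) in eGFP-GluA2. The log2 fold change of eGFP-GluA2 against eGFP fitted by edgeR was -1.41 (SE 0.55). It was -0.78 without eGFP replicate 8, -0.53 without eGFP replicates 8 and 9 and -0.61 on log2(TPM + 0.5). Within the background classes, the difference in mean log2 CPM was -1.53 in low-background libraries, -1.43 in the middle ones and 0.07 in high-background ones.

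Hbb-bt, its near-identical partner, had 89 reads in all. It ran from 0 reads in replicate 7 over a median of 0.596 to 1.87 CPM in replicate 1 of the eGFP group. In the eGFP-GluA2 group the values went from 0 reads in replicates 6 and 7 over a median of 0.466 to 1.10 CPM in replicate 3. The groups overlapped. Reads were present in 13 of 16 libraries, but in too few of them at the level that the filter on low counts asks for, so Hbb-bt has no fitted value. Summed, the beta pair averaged 3.30 ± 2.63 CPM (SD, n = 9) in eGFP and 1.60 ± 1.05 CPM (SD, n = 7) in eGFP-GluA2, with a fitted log2 fold change of -1.19 (SE 0.49).

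Hba-a1, which codes for the alpha chain, had 260 reads. Its level in eGFP libraries ran from 0.286 CPM in replicate 7 over a median of 1.42 to 4.25 CPM in replicate 9, with 3.70 CPM in replicate 8. In eGFP-GluA2 libraries it ran from 0 reads in replicate 2 over a median of 0.933 to 2.41 CPM in replicate 1. The same 2 eGFP libraries that led for Hbb-bs led here, in the reverse order and with overlapping intervals (3.22 to 5.50 CPM in replicate 9 and 2.74 to 4.89 CPM in replicate 8), while the other 7 eGFP libraries lay within the range of the eGFP-GluA2 group. The means were 1.81 ± 1.37 CPM (SD, n = 9) and 0.978 ± 0.775 CPM (SD, n = 7), and the fitted log2 fold change was -0.99 (SE 0.66). The filter dropped the gene once eGFP replicates 8 and 9 were left out. Hba-a2 had 30 reads, with a median of 0.165 CPM and a highest level of 0.528 CPM in eGFP (replicate 8) and a median of 0.065 CPM and a highest level of 0.350 CPM in eGFP-GluA2 libraries; 5 of 16 libraries had none. The alpha pair summed to 2.03 ± 1.46 CPM (SD, n = 9) in eGFP and 1.10 ± 0.735 CPM (SD, n = 7) in eGFP-GluA2 libraries (log2 fold change -0.98, SE 0.56).

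**Figure D1:**
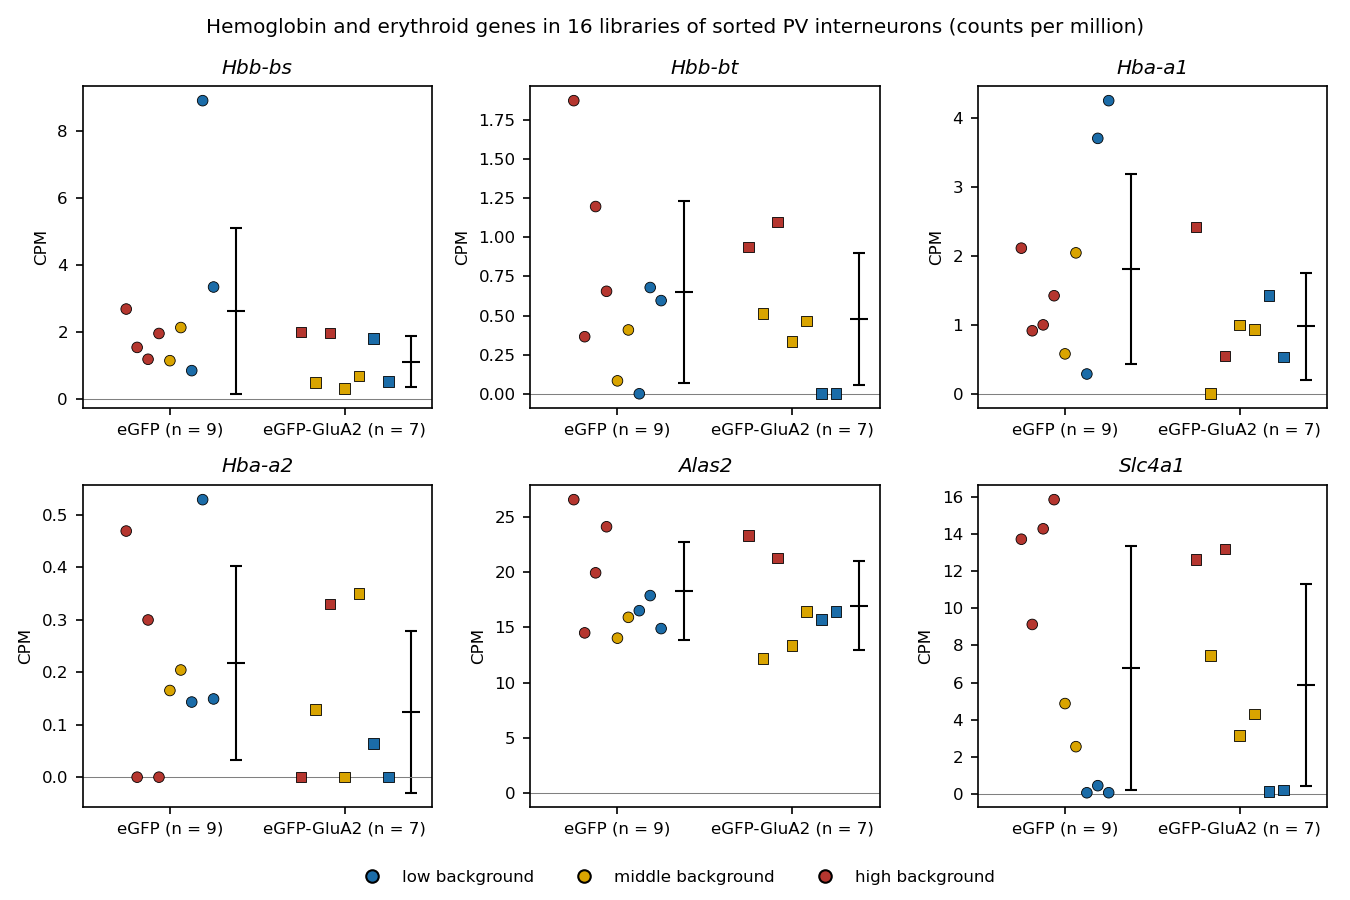
Level of each of the 6 genes in CPM (vertical axis, from the deposited counts) in 9 eGFP (circles) and 7 eGFP-GluA2 libraries (squares), coloured by background class; bars give the mean ± SD of a group. Hbb-bs reaches 8.91 CPM in eGFP replicate 8, Alas2 stays between 12.2 and 26.6 CPM, and Slc4a1 splits by colour rather than by group.

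Alas2 (ENSMUSG00000025270, chromosome X: 150547375 to 150570638, plus strand), the erythroid enzyme of heme synthesis, had 95 to 243 reads in every library. The level ran from 14.0 CPM over a median of 16.5 to 26.6 CPM in eGFP and from 12.2 over a median of 16.4 to 23.3 CPM in eGFP-GluA2 libraries, and the groups overlapped almost fully. The means were 18.3 ± 4.46 CPM (SD, n = 9) and 17.0 ± 4.02 CPM (SD, n = 7), with a fitted log2 fold change of -0.09 (SE 0.10), which was 0.05 on log2(TPM + 0.5). Its coefficient of biological variation, edgeR's measure of spread between libraries, was 0.134, against a median of 0.185 over 2615 genes within 0.5 of its average log2 CPM.

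Slc4a1 (ENSMUSG00000006574, chromosome 11: 102348824 to 102366203, minus strand), the anion exchanger, ran from 0.0715 CPM (1 read) over a median of 4.87 to 15.8 CPM in eGFP and from 0.129 over a median of 4.31 to 13.2 CPM in eGFP-GluA2 libraries. Both groups cover nearly the same range. The means were 6.77 ± 6.55 CPM (SD, n = 9) and 5.87 ± 5.42 CPM (SD, n = 7), and the fitted log2 fold change of -0.14 (SE 0.88) turned to 0.13 with the background level as a covariate. The coefficient of biological variation of Slc4a1 was 1.18, higher than in 97.3% of 3211 genes of like level.

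Of all genes tested between the groups, 0.00381% (1 of 26257) passed an adjusted p of 0.05 in edgeR's quasi-likelihood test, and 0 of the 4 genes that the filter kept (Hbb-bs, Hba-a1, Alas2 and Slc4a1) were among them. Over all genes, 293 had an unadjusted p under 0.05, and DESeq2 called 8. Since the 6 genes were chosen on this contrast, their count is given only beside that of all genes, and nothing is read from it. In log2 CPM, 0.019% of genes had groups without overlap, and none of the 6 genes did. All 4 fitted fold changes were below 0, as were those of 54.5% of all genes. In the authors' deposited table the log2 fold changes were -0.23 for Hbb-bs, -0.08 for Hbb-bt, -0.16 for Hba-a1, -0.13 for Hba-a2, -0.05 for Alas2 and -0.06 for Slc4a1. For Hbb-bs their standard error was 0.13, against 0.55 in the edgeR fit, so the sizes of the 2 sets are not compared. Whether the authors' values were drawn toward 0 in the fit was not tested. In bulk libraries such as these, fewer cells of a type and less RNA per cell cannot be told apart.

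TPM, which is scaled for transcript length, allows the levels of the genes to be set side by side. Over 16 libraries Alas2 averaged 10.3 ± 3.44 TPM, Hbb-bs 5.45 ± 6.08, Hba-a1 3.34 ± 2.83, Hba-a2 1.77 ± 1.94, Hbb-bt 0.901 ± 1.13 and Slc4a1 0.720 ± 0.865 TPM (SD, n = 16). Neighbours in this order overlapped in range, but the lowest Alas2 value (5.18 TPM) exceeded the highest of Hbb-bt (4.06 TPM) and of Slc4a1 (2.45 TPM). Pvalb, the gene of parvalbumin, averaged 233 ± 96.7 TPM in the same libraries.

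The share of each partner within a globin pair depended on which deposited table was used. Hba-a2 held 10.3% of the alpha pair in counts, 34.7% in TPM and 28.1% in the reads recovered from the authors' normalized counts, a second set of whole reads. Hbb-bt held 19.7%, 14.2% and 17.6% of the beta pair. The ratio of beta to alpha pair was 1.56 in counts, 1.24 in TPM and 1.03 in recovered reads. The tables also differed in how many reads they gave each gene. Over all genes, recovered reads came to 132% of the deposited counts. For the 4 globin genes they came to 174% (1290 against 741 reads), and for Hba-a2 alone to 597% (179 against 30). For Alas2 they came to 40.8% (1236 against 3026) and for Slc4a1 to 40.5% (384 against 949). The program that counted the reads of the first table is not named, and the cause of these differences was not tested.

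In both tables the globin reads gathered in the same libraries. Of 741 counts of the 4 genes, eGFP replicate 8 had 183 and eGFP replicate 9 had 112, together 39.8%; of 1290 recovered reads these libraries had 370 and 231, together 46.6%. The third highest library in recovered reads was eGFP-GluA2 replicate 6, with 117 reads, while in counts it was eGFP replicate 1, with 61. The 2 leading libraries have a low background, but so do eGFP replicate 7 and eGFP-GluA2 replicate 7, which had 33 and 43 recovered reads, within the 13 to 73 of the middle- and high-background libraries.

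**Figure D2:**
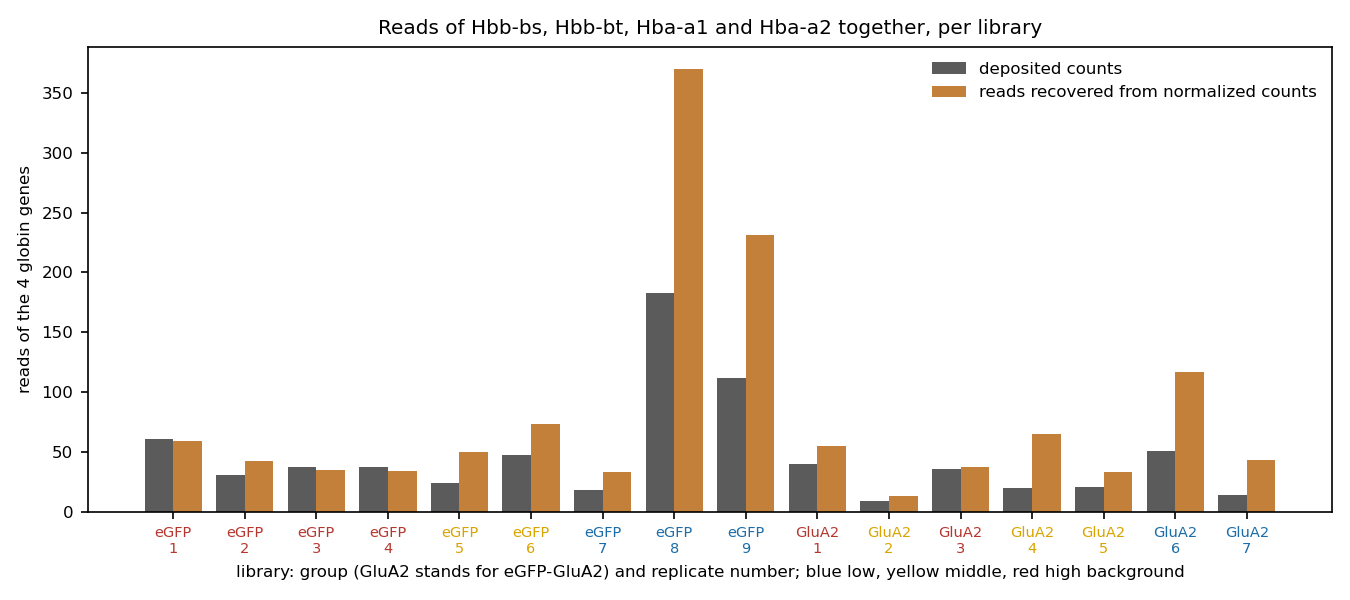
Reads of the 4 globin genes together (vertical axis) in each of the 16 libraries (horizontal axis, label colours give the background class), as deposited counts (grey bars) and as reads recovered from the authors' normalized counts (orange bars). eGFP replicates 8 and 9 stand highest in both, with 183 and 112 counts and with 370 and 231 recovered reads.

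The levels of Hbb-bs and Hba-a1 went together over the 16 libraries. In log2 CPM, Pearson's r was 0.74 (permutation p = 0.00142, adjusted p = 0.0071 over the 5 pairs of Hbb-bs with another of the genes) and Spearman's rho was 0.69 (permutation p = 0.00442, adjusted p = 0.0221). It was 0.71 with the mean of each background class taken out (permutation p = 0.00184) and 0.70 with the group means taken out (permutation p = 0.00199). It was 0.83 without the 2 libraries farthest from the median of Hbb-bs, eGFP replicate 8 and eGFP-GluA2 replicate 4. Without eGFP replicates 8 and 9 it was 0.56 over 14 libraries (adjusted permutation p = 0.180). The relation thus did not pass the threshold once both libraries richest in globin reads were left out. The genes were chosen by a group difference, and for Hbb-bs these 2 libraries add to it. The permutation p-values do not allow for that choice. Hbb-bs had an r of 0.31 with Hbb-bt (adjusted permutation p = 0.281), 0.52 with Hba-a2 (0.0585), 0.55 with Alas2 (0.0585) and -0.29 with Slc4a1 (0.281), and rho was 0.29 with Hbb-bt. With class means taken out, r was 0.61 both with Hbb-bt and with Hba-a2 (adjusted permutation p = 0.0194 each). How reads that fit both genes of a pair were counted is not stated, so they may bear on the relation of Hbb-bs with Hbb-bt. Hbb-bs and Hba-a1 are not such a pair.

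Among 23345 genes with a mean log2 CPM of at least 0, those most like Hbb-bs in their deviations from the class means, over the 16 libraries, were Zfp976 (r = 0.93), Amy1, Gm10033, Gm44894 and Blzf1 (0.84 each), and Arrdc3, Gfm2, Gm10778, Chst3 and Cmtm3 (0.83 each). With the class means left in, the likeness was gone for Chst3 (r = -0.14) and Cmtm3 (r = -0.03), and Chst3 stood at only 0.604 and 0.298 CPM in eGFP replicates 8 and 9 against a mean of 4.57 CPM. Hba-a1 stood at rank 120 by the first measure, Alas2 at 2085 and Slc4a1 at 8514. With only 16 libraries, which differ in depth and class, such a ranking describes these libraries only. The genes at its head differ from Hbb-bs in level, with Gfm2 at 65.7 and Arrdc3 at 27.7 CPM on average. Hbb-bs itself stood at 8.91 CPM in eGFP replicate 8 against a mean of 1.98 CPM over all libraries, and Zfp976 at 5.44 CPM against a mean of 4.597 CPM.

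The genes were next followed along the background level, with the group kept in the model. This axis is not fully separate from the contrast that chose the genes, since both libraries highest in Hbb-bs and Hba-a1, eGFP replicates 8 and 9, have a low background. In this fit, 75.4% of 26257 genes changed with the background in edgeR's quasi-likelihood test, 44% rising and 31.4% falling. Of the 4 genes tested here 1 passed, Slc4a1. Its slope was 0.98 in log2 level per unit of log2 background (SE 0.06, edgeR adjusted p = 1.78e-12). It averaged 0.191 ± 0.159 CPM (SD, n = 5) in low-, 4.47 ± 1.90 (SD, n = 5) in middle- and 13.1 ± 2.25 CPM (SD, n = 6) in high-background libraries. The low-background values, 13 reads over 5 libraries, lie at or near the limit that a count of 0 allows, and the filter kept Slc4a1 through the other 11 libraries, where it is higher. All 6 high-background libraries lay above all 5 low-background ones, as for 37.4% of all genes; the reverse order, found for 26.8% of all genes, held for 0 of the 6 genes. In recovered reads 4 of the 5 low-background libraries had 0 reads of Slc4a1, and the slope was 0.96 (edgeR adjusted p = 3.72e-06).

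Hbb-bs and Hba-a1 were not called rising on this axis. Hbb-bs averaged 3.09 ± 3.43 CPM (SD, n = 5) in low- and 1.90 ± 0.504 CPM (SD, n = 6) in high-background libraries, and Hba-a1 2.04 ± 1.83 and 1.40 ± 0.729 CPM. Their slopes were -0.24 (SE 0.11, edgeR adjusted p = 0.0617) and -0.23 (SE 0.11, edgeR adjusted p = 0.0812). In recovered reads they were -0.34 and -0.30 (edgeR adjusted p = 0.016 and 0.0141), past the threshold. The slope of Hbb-bs passed also without any 1 of eGFP replicate 7 and eGFP-GluA2 replicates 1, 3 and 7 (-0.31 to -0.29), and that of Hba-a1 without any 1 of eGFP replicate 7 and eGFP-GluA2 replicates 1 and 7 (-0.31 to -0.28). Over all fits that left out 1 library, the slope ran from -0.31 to -0.09 for Hbb-bs and from -0.31 to -0.14 for Hba-a1. Without eGFP replicates 8 and 9 the slope of Hbb-bs turned to 0.04. With the replicate numbers as a block in the model, the slopes turned to 0.135 for Hbb-bs and 0.125 for Hba-a1. Hbb-bt went the other way in counts, at 0.255 ± 0.350 CPM (SD, n = 5) in low- and 1.02 ± 0.517 CPM (SD, n = 6) in high-background libraries (slope 0.32 in the fit without a filter on low counts, edgeR adjusted p = 0.0179), but not on log2(TPM + 0.5), where its slope was -0.05 (limma adjusted p = 0.768). The direction of Hbb-bt thus depends on the table. Hba-a2 averaged 0.177 ± 0.206 and 0.183 ± 0.208 CPM in the same classes, with a slope of -0.06 without the filter (edgeR adjusted p = 0.748) but of -0.28 on log2(TPM + 0.5) (limma adjusted p = 0.0391).

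Alas2 changed little, and in a direction that depends on the scaling. It averaged 16.3 ± 1.11 CPM (SD, n = 5) in low-, 14.4 ± 1.76 CPM (SD, n = 5) in middle- and 21.6 ± 4.18 CPM (SD, n = 6) in high-background libraries. With TMM scaling, which corrects for a shift of most genes, the slope was -0.03 (SE 0.02, edgeR adjusted p = 0.26), while with total-count and upper-quartile scaling it was 0.08 and 0.06 (edgeR adjusted p = 0.017 and 0.0267). The median slope over all genes tested was 0.04 with TMM, 0.15 with total-count and 0.13 with upper-quartile scaling, so that Alas2 lay below the median gene under each. Over all genes, those called rising made up 58.4% of those called with TMM, 82.8% with total-count and 79.0% with upper-quartile scaling.

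**Figure D3:**
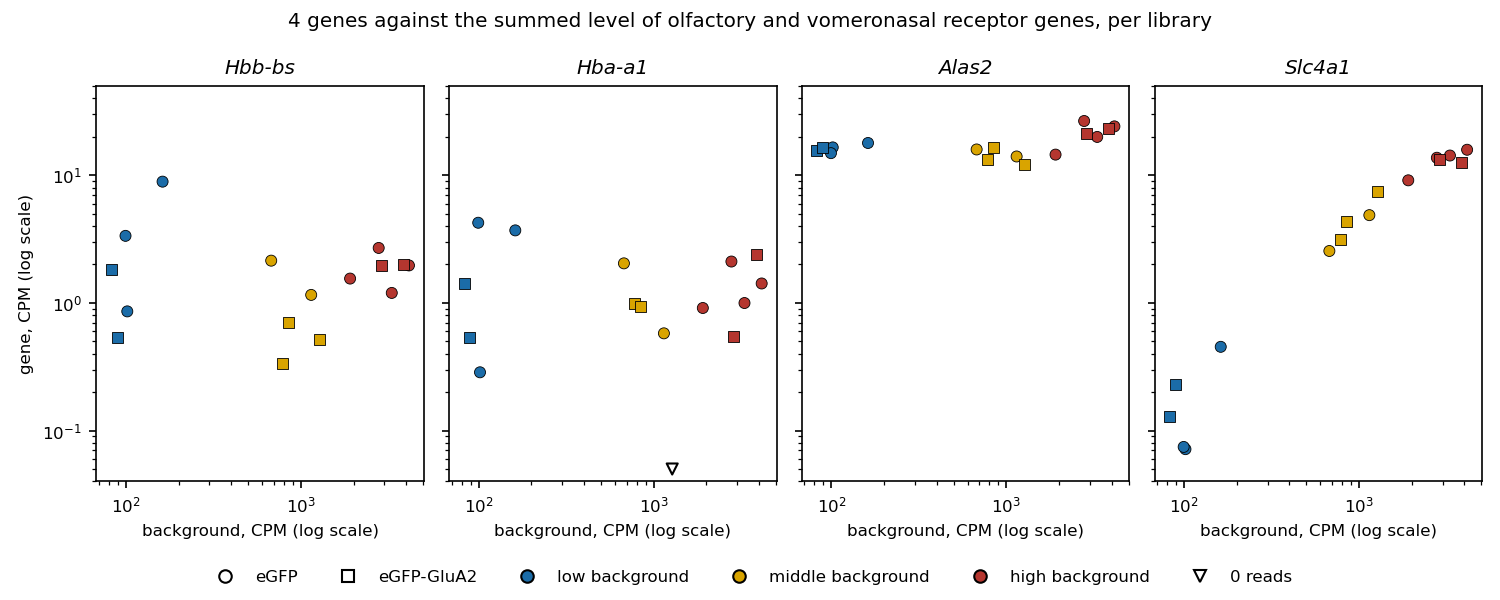
Level of Hbb-bs, Hba-a1, Alas2 and Slc4a1 (vertical axis, CPM on a log scale) against the background level (horizontal axis, CPM on a log scale) in each library; circles are eGFP, squares eGFP-GluA2 and triangles libraries with 0 reads. Slc4a1 climbs from a mean of 0.191 CPM in low- to 13.1 CPM in high-background libraries, Alas2 stays between 12.2 and 26.6 CPM, and the globin genes scatter without such a climb.

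Alas2 lies wholly within the span of Apex2 (ENSMUSG00000025269, chromosome X: 150519519 to 150589868), a gene of DNA repair on the other strand. Of its 2403 annotated exon bases, 311 (12.9%), from 150570328 to 150570638, are also exon of Apex2. The sources do not say if reads were counted by strand, and reads of this stretch cannot be assigned without it. Apex2 was measured at 24.9 to 46.7 CPM, and the ratio of Alas2 to Apex2 counts lay between 0.442 and 0.653 in all 16 libraries. In log2 CPM the pair had a Pearson's r of 0.63 (permutation p = 0.00733) and a Spearman's rho of 0.63 (permutation p = 0.0112), with r at 0.56 without the 2 libraries farthest from the median of Alas2 and 0.57 with class means taken out. How many Alas2 counts come from Apex2 was not tested.

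The loci of the globin genes hold other genes, which were read along the same axis. Within 100 kb of the beta pair lie 17 other genes, 10 of them olfactory receptor genes. The 3 that passed the filter, Olfr69, Olfr64 and Olfr65, had slopes of 0.84, 0.91 and 0.92, but they belong to the sum that defines the background, so these slopes are no test. The background computed without chromosome 7 left the calls of the 6 genes as they were. Within 100 kb of the alpha pair 8 of 10 other genes were tested, 5 rising and 2 falling. Hba-x, the embryonic alpha-like gene next to Hba-a1, had a slope of 1.02, Il9r 0.94, Hbq1a 0.54 and Rhbdf1 0.24, while Nprl3, which overlaps the alpha-globin enhancers, had -0.05 and Mpg -0.02 (edgeR adjusted p = 0.421). Of the 10 tested neighbours of Slc4a1, 1 rose, Itga2b (0.34), the platelet integrin gene, named after its values were seen, and 7 fell.

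A wider set of 77 erythroid genes, listed by role, was read in the same way. Between the groups 0 of 69 tested genes passed, with 34 fold changes above and 35 below 0 (median -0.00 in log2), beside the 0.00381% called over all genes. Along the background 30 rose and 34 fell, beside 44% and 31.4% of all genes. With total-count scaling 36 rose and 16 fell, and in recovered reads 18 rose and 33 fell of 59 tested. Of the 69 genes, 21 had a slope of at least 0.5 and the other 48 a smaller one. A gene near 0 in low-background libraries could pass the filter only through the libraries where it is higher, so that for such genes, here and in the lists that follow, a rise was in part set by the filter.

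Of the 10 other globins, 5 passed the filter. Of these, 4 rose (Hba-x 1.02, Hbq1a 0.54 and Ngb, neuroglobin, 0.54 among them) and Cygb, cytoglobin, fell (-0.21; 114 ± 6.01 CPM in low- and 74.6 ± 15.4 CPM in high-background libraries, SD, n = 5 and 6). The embryonic genes Hbb-y and Hbb-bh1, and Hbb-bh2 of the same locus, had no read in any of the 5 low-background libraries, among them eGFP replicate 8. The embryonic gene Hba-x had 1. The 2 libraries with the most adult globin reads thus held at most 1 read of these genes together.

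Genes of the red cell membrane split: 10 of 16 tested rose and 6 fell, and in recovered reads 6 of 12 rose and 6 fell. Epb42, Kel and Ermap were sparse or near 0 in low-background libraries. The level of Epb42, whose protein binds band 3, was 0.205 ± 0.103 CPM there (SD, n = 5) and 8.40 ± 2.30 CPM in high-background libraries (SD, n = 6; slope 0.94). Kel and Ermap, which carry blood group antigens, had slopes of 0.93 and 0.79. In eGFP replicate 8, the library richest in Hbb-bs, Epb42 stood at 0.377 CPM and Slc4a1 at 0.453 CPM. Ank1, ankyrin, named here after its values were seen, was by contrast abundant in every library, at 679 ± 37.2 CPM in low- and 511 ± 51.4 CPM in high-background libraries (slope -0.17).

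Of the 11 heme synthesis genes other than Alas2, 0 rose and 9 fell with TMM scaling, with a median slope of -0.11, but with total-count scaling 3 rose and 2 fell, so that their direction rests on the scaling. Alas1, the enzyme used outside the red cell lineage, had 62.3 ± 5.83 CPM in low- and 54.5 ± 2.19 CPM in high-background libraries (slope -0.13), Fech, which inserts iron into heme, 31.4 ± 2.34 and 26.9 ± 1.53 CPM (-0.14), and Abcb10 and Cpox had slopes of -0.14 and -0.11. In TPM Alas1 averaged 27.3, against 10.3 for Alas2. Of 12 genes of heme breakdown and iron handling, 4 rose and 8 fell. Tfrc, the transferrin receptor, and Ftl1, ferritin light chain, fell (slopes -0.21 and -0.20), and Steap3, a ferrireductase, and Slc40a1, the iron exporter ferroportin, rose (0.76 and 0.23).

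Erythroid regulators rose in 6 of 10 cases and fell in 3 with TMM scaling, in 7 and 0 with total-count scaling, and in 3 and 3 of 7 in recovered reads. Tal1, Gfi1b and Nfe2, transcription factors of blood cells, had slopes of 0.93, 0.96 and 0.62, and Epor, the erythropoietin receptor, 0.52. Gfi1b had 1 read over the 5 low-background libraries and Tal1 had 5. Of 13 late erythroid genes 6 rose and 5 fell with TMM scaling, 8 and 4 with total-count scaling, and 5 and 6 of 12 in recovered reads. Trim58, Hemgn, Trim10 and Tent5c had slopes of 0.91, 1.00, 1.02 and 0.44. The genes named from these lists of regulators and late genes all rose, and the falling ones are not named. The related anion exchangers Slc4a3 (394 to 549 CPM) and Slc4a2 (30.1 to 55.3 CPM) were measured in every library and fell slightly with TMM scaling (slopes -0.11 and -0.06), and neither was called with total-count scaling.

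**Figure D4:**
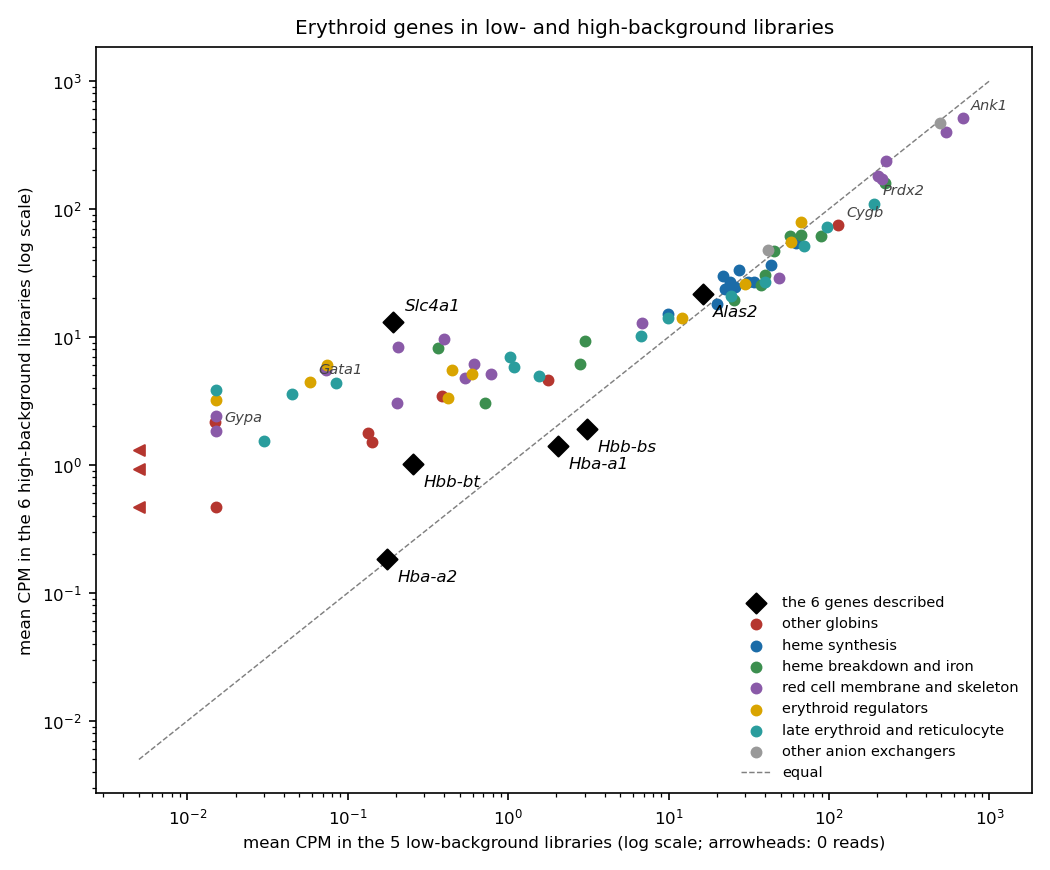
Mean level of erythroid genes in the 5 low-background libraries (horizontal axis) and the 6 high-background libraries (vertical axis), both in CPM on log scales, coloured by role; diamonds are the 6 genes described, arrowheads mark genes with reads in high- but not in low-background libraries, Icam4 with no read at all is not drawn, and the dashed line marks equal levels. Slc4a1 (0.191 and 13.1 CPM) sits among genes far above the line, while Alas2, Hbb-bs, Hba-a1 and Hba-a2 lie close to it.

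Most tested markers of blood and vessel cells rose along the background, as Slc4a1 did. Of the leukocyte markers 7 of 8 tested rose and 0 fell, and their sum of 12 genes was 3.69 to 6.04 CPM in low- and 30.02 to 63.2 CPM in high-background libraries; S100a8 and Nkg7 had no read in the former. Ptprc, the pan-leukocyte marker CD45, had 1.12 ± 0.254 CPM (SD, n = 5) and 15.0 ± 4.90 CPM (SD, n = 6). Platelet markers rose in 3 of 3 cases, endothelial markers in 8 of 9 (11.8 to 18.8 against 64.0 to 125 CPM in sum) and mural cell markers in 7 of 8 (8.02 to 14.3 against 42.4 to 88.9 CPM). Microglia and macrophage markers rose in 6 of 10 and astrocyte markers in 4 of 6 cases, with 1 falling in each list. Of 8 excitatory neuron markers 4 rose and 3 fell, and of 6 oligodendrocyte markers 1 rose and 3 fell. These counts, with TMM scaling, stand beside 44% of all genes rising and 31.4% falling. With total-count scaling, under which 82.8% of all called genes rose, the excitatory markers went to 5 rising and 0 falling, the oligodendrocyte markers to 2 and 0, and the microglia and macrophage markers to 9 and 0, so that the direction of the first 2 lists rests on the scaling. Leukocyte markers stayed at 7 and 0, platelet markers at 3 and 0 and astrocyte markers at 4 and 1, while endothelial and mural markers each went to 8 and 0. In recovered reads 5 of 6 leukocyte, 1 of 1 platelet, 6 of 8 mural and 5 of 8 endothelial markers rose. Of these lists only the endothelial one held a falling marker (1). Microglia and macrophage markers stood at 4 rising and 1 falling of 10, and astrocyte markers at 2 and 0 of 6. Excitatory markers stood at 3 and 3, and oligodendrocyte markers at 0 and 1. Over all genes 9508 rose and 7656 fell of 23712. Between the groups the marker sums covered like ranges, for leukocytes 4.08 to 63.2 CPM in eGFP and 3.69 to 62.8 CPM in eGFP-GluA2 libraries. In eGFP replicates 8 and 9, which held the most globin reads, the leukocyte sum was 6.04 and 4.99 CPM and the endothelial sum 18.3 and 15.7 CPM, at the level of the other low-background libraries. The part of these cell types in the levels of Slc4a1 or of the globins was not tested.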

How the data were processed

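RNA-seq was made from 16 sorted libraries, 9 eGFP and 7 eGFP-GluA2, with 150-bp read pairs. Per the series' design text, the authors used bcbio-nextgen 1.2.3, STAR on GRCm38, Sailfish with the Ensembl annotation, and DESeq2. Whole reads per gene stand in the deposited count table, whose counting program is not named. The authors' second deposited table gives TPM. The third deposited table holds signal values (counts divided by a size factor), the authors' log2 fold change, a test statistic (score) and p-values. Of its values 100% were whole multiples of a single read (tolerance 0.001), giving 10477517 to 17382059 recovered reads per library.

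Genes were named from GENCODE M21. The 6 genes and all lists were chosen with earlier results of these data known. They are named by a rule: all 6 genes; of each erythroid list up to 4 called genes of smallest p; of each cell type list the 2 most abundant; the 10 genes most like Hbb-bs; tested neighbours of the globin pairs within 100 kb; and Gria2. From the cell type lists only some are printed. Counts were tested with edgeR 4.0.16 (R 4.3.3), by TMM scaling, filterByExpr with the group (26257 genes), the robust quasi-likelihood F test and Benjamini-Hochberg adjustment at 0.05, for the group and for the slope on the background level with the group as a covariate. CPM are per total count; log2 CPM use TMM and a prior count of 2. Classes were cut at 500 and 1500 CPM. Correlations used 100000 permutations, two-sided. Alternatives used DESeq2 1.42.0, limma 3.58.1 on log2(TPM + 0.5), with pseudocounts of 0.1 and 1, other scalings, no filter, recovered reads, summed pairs, a replicate block and leaving out libraries. Whether libraries come from separate mice is given only by the label of biological replicate, and p-values measure the spread between these libraries. Ahsp was not found by this symbol and is not used here. A further gene of the red cell membrane list is counted in its list but not reported by name or drawn here.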

Additional observations from a re-analysis of the deposited data

Results flagged for a closer look

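Hbb-bs in eGFP replicate 8 lay apart from the other eGFP libraries. Its level of 8.91 CPM stood above the next value, 3.35 CPM in eGFP replicate 9, by a gap of 0.69 of the range of the group. This was 1 of 12 combinations of gene and group examined, and chance flags about 1 in 20. Hbb-bs was, however, chosen by a group difference to which this value adds. That rate therefore does not apply here, and the flag is a description only. In the same library Hba-a1 stood at 3.70 CPM and the 4 globin genes together at 183 counts, while Slc4a1 stood at 0.453 CPM.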

How the results depend on the processing

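The count of genes called between the groups was 1 in 16 of 16 fits that left out a library, 2 with upper-quartile and total-count scaling and with limma on log2(TPM + 0.5), (TPM + 0.1) and (TPM + 1), 3 with recovered reads, 8 with DESeq2, and 9 once the background level was a covariate; none of the 6 genes was called in any of these. Same-numbered libraries deviated together in 6 of 7 pairs (correlations 0.19 to 0.90) but not in replicate 4 (-0.03), and no label ties them, so the numbers were not taken as pairs. A replicate block gave 7 genes called between the groups and a fold change of -0.60 for Hbb-bs. With it 4812 genes changed with the background, against 19796, and the slopes turned to 0.135 for Hbb-bs, 0.125 for Hba-a1 and 0.034 for Alas2. Without a filter 40495 genes changed. With upper-quartile scaling 2 of the 4 genes tested here passed along the background, beside 15633 rising and 4159 falling of 26257 genes. Total-count scaling gave 2 of 4, beside 16269 rising and 3388 falling of 26257. Recovered reads gave 3 of 4, beside 9508 rising and 7656 falling of 23712. No filter gave 2 of the 6 genes. When a library was left out 1 to 3 passed, beside 17786 to 22304 genes called in all. The fold change of Alas2 turned to 0.052, 0.057 and 0.047 with limma at pseudocounts of 0.5, 0.1 and 1. Its slope turned to 0.062 with upper-quartile and 0.080 with total-count scaling, 0.066 with limma, 0.044 with recovered reads and 0.0060 without eGFP replicates 8 and 9, where that of Hbb-bs turned to 0.044, and ran from -0.042 to 0.011 when a library was left out, above 0 without eGFP replicate 2 and eGFP-GluA2 replicate 2 (0.0023). The fold change of Slc4a1 turned to 0.13 with the covariate and ran from -0.41 to 0.085 when a library was left out, above 0 without eGFP replicate 3 (0.054) or 4 (0.048) and eGFP-GluA2 replicate 6 (0.085) or 7 (0.078). The r of Hbb-bs ran from 0.22 to 0.40 with Hbb-bt, 0.69 to 0.82 with Hba-a1, 0.25 to 0.63 with Hba-a2, 0.31 to 0.63 with Alas2 and -0.42 to -0.17 with Slc4a1 when a library was left out, lowest for Hba-a2 and Alas2 without eGFP replicate 8. On log2(TPM + 0.5) it was 0.56 with Hbb-bt and 0.68 with Hba-a2, with class means out 0.61 with both and 0.17 with Slc4a1, and without eGFP replicates 8 and 9 0.56 with Hba-a1 and 0.11 with Slc4a1. The fits without these 2 libraries, with total-count scaling, with group means out and of slopes in recovered reads were chosen after seeing the data. The cause of these changes was not tested. Depth limits the globins most: Hba-a2 had 30 and Hbb-bt 89 reads.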
